A study of Mus musculus with 36 samples.

Results

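The genes described are 8 receptor-type protein tyrosine phosphatase genes, Ptprd, Ptprs, Ptprf, Ptprt, Ptprm, Ptprk, Ptprg and Ptprn2, taken by symbol from the 49943 RefSeq genes of GRCm38 on chromosomes 1 to 19, X and Y. They were selected on the levels of DNA breaks by tissue, the pattern in Ptprd being known. The levels of breaks by tissue are therefore given as a description. The share of SSBs against that of AP sites contains the same SSB counts, so it is not independent of the choice. Levels were counted by tissue and assay when the genes were defined, so AP sites by tissue are not taken as independent either. The tests that do not rest on these levels concern the strand and the place of the lesions within the genes.

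The animals were 2 male C57BL/6J mice of 24 months, with no treatment named, and DNA of sperm, PBMCs, bone marrow, liver, heart and brain was profiled, with 2 replicates per tissue and no genetic change named for any group. The p-values do not measure the spread between mice, since the labels do not say which animal a replicate is, and hold for these samples only. In the tests of strand and of place within a gene they rest largely on the number of positions counted. Very small values there reflect many positions and not many animals. Single-strand breaks (SSBs, interruptions of 1 DNA strand) were mapped with SSiNGLe and AP sites (sugars that have lost their base) with SSiNGLe-AP in the same DNA samples, which gives 12 SSB and 12 AP libraries. Red cells were lysed in bone marrow, PBMCs came from a Ficoll gradient, and motile sperm came from the epididymal tail, with DNA purified by another kit than for the other tissues, so that kit and tissue cannot be told apart for sperm. The SSB libraries held 225011 to 1041983 positions and the AP libraries 460719 to 963258. Levels are given as LPKM, the lesion positions in a gene divided by the gene's length and the library's positions and multiplied by 1e+09 (length in bases). They are shares of the lesions of a library, and in these bulk samples neither the absolute number of lesions nor the part of each cell type can be read from them.

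Receptor-type phosphatases span the membrane and remove phosphate from tyrosines inside the cell, which opposes tyrosine kinases. Ptprd, Ptprs and Ptprf belong to the type IIa (LAR) group, whose immunoglobulin-like and fibronectin-like extracellular repeats bind partners such as Slitrk proteins, Il1rapl1 and Ntrk3 at synapses and heparan sulphate proteoglycans on axons. Ptprt, Ptprm and Ptprk belong to the type IIb group, which binds the same receptor on a neighbouring cell at adhesive contacts. Ptprg carries a carbonic anhydrase-like domain that binds contactins, and Ptprn2 (phogrin) sits in the membrane of secretory granules of neuroendocrine cells and is catalytically atypical. Some of these genes are among the longest of the genome because of very large introns.

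The 8 genes held 15829 SSB positions over the 12 SSB libraries and 26881 AP positions over the 12 AP libraries, 0.287% ± 0.0212 and 0.305% ± 0.0115 of a library (SD, n = 12). Ptprd, chr4:75941237-78211742 and 2270506 bp long, held 3542 SSB and 5575 AP positions. Ptprt, chr2:161521988-162661147, held 2972 and 5360. Ptprn2, chr12:116485695-117278167, held 2670 and 4926. These 3 genes are the longest of the 8, and they carried the most positions of both kinds. Ptprg, chr14:11553440-12242041, held 2289 SSB and 4072 AP positions. Ptprm, chr17:66666848-67354491, held 2196 and 3895, and Ptprk, chr10:28074820-28597397, held 1171 and 1801. The other type IIa genes are short and counts in them were low. Ptprs, chr17:56412426-56476561, held 473 SSB and 515 AP positions, and Ptprf, chr4:118208213-118291405, held 516 and 737. Between 0 and 9 other RefSeq genes, none of them protein-coding, overlap each of the 8 and share its positions. Ptprk, Ptprg and Ptprn2 lie on the plus strand and Ptprs, Ptprf, Ptprt and Ptprm on the minus strand. For Ptprd no strand was given in the reference table used here. Whether a position is exonic or intronic was not analysed here.

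The promoters of the members held few mapped lesions, and the most SSBs lay in an internal promoter of Ptprs, which was chosen for display after its values were seen. In RefSeq's table of GRCm38.p6, 9 promoters of 7 members (250 bases before and 50 after a start) were found, and none for Ptprd. Over the 12 SSB libraries, the promoters of Ptprt, Ptprf, Ptprk and Ptprn2 held 0 positions, that of Ptprm held 1 and the 2 of Ptprg held 1 each. Of the 2 promoters of Ptprs, the one at the 5′ end of the gene (chr17:56476431-56476730) held 2 SSB positions and the internal one (chr17:56462172-56462471, minus strand, 64.3% GC) held 8, in 6 libraries. At least 8 were found in 2.57% of the 32815 promoters, whose mean was 2.05. The positions were single hits, 5 on the coding and 3 on the template strand, from bone marrow (both replicates), brain (replicate 2), heart (replicate 2, 2 positions), liver (replicate 1) and sperm (replicate 2, 2 positions). No AP position fell in either promoter of Ptprs, in 12 AP libraries with a mean of 2.13 per promoter. The internal promoter is shown 5′ to 3′ because it carries most of the promoter SSBs of the 8 genes, with the 8 positions in capitals.
Ptprs internal promoter, chr17:56462172-56462471: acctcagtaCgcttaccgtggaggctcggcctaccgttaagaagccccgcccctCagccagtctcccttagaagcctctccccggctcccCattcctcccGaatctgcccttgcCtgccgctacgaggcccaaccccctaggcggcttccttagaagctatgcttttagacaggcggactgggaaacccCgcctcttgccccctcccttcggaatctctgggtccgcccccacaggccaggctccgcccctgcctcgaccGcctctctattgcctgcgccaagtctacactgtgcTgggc

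Per length, the 2 shortest genes had the highest levels and the longest had the lowest. LPKM-SSB was 1.33 ± 0.288 in Ptprs (SD, n = 12 libraries) and 1.12 ± 0.175 in Ptprf, and the 2 genes overlapped in range. Ptprn2 came next at 0.616 ± 0.0507, below Ptprf in 12 of 12 libraries and with no overlap in range. Ptprg at 0.596 ± 0.0417 was below Ptprn2 in 7 of 12 libraries and Ptprm at 0.567 ± 0.0642 below Ptprg in 9 of 12, and these 3 did not differ beyond the spread of the libraries. Ptprt at 0.478 ± 0.0569 was below Ptprm in 10 of 12 libraries, and Ptprk at 0.408 ± 0.0628 was below Ptprt in 10 of 12. Ptprd was lowest, at 0.284 ± 0.0452, and was below Ptprk in 12 of 12 libraries. AP sites gave almost the same order. LPKM-AP was 1.0 ± 0.110 in Ptprf and 0.933 ± 0.252 in Ptprs, 0.696 ± 0.0550 in Ptprn2, 0.671 ± 0.0450 in Ptprg, 0.639 ± 0.0459 in Ptprm, 0.534 ± 0.0254 in Ptprt, 0.395 ± 0.0510 in Ptprk and 0.281 ± 0.0297 in Ptprd. Only Ptprs and Ptprf changed places, and there the ranges overlapped. Over the 8 genes, Spearman's rho between length and mean level was -0.667 for SSBs and -0.643 for AP sites, a description over genes that share the libraries. Ptprk departs from this order, being shorter than 5 of the other genes and yet second lowest.

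**Figure D1:**
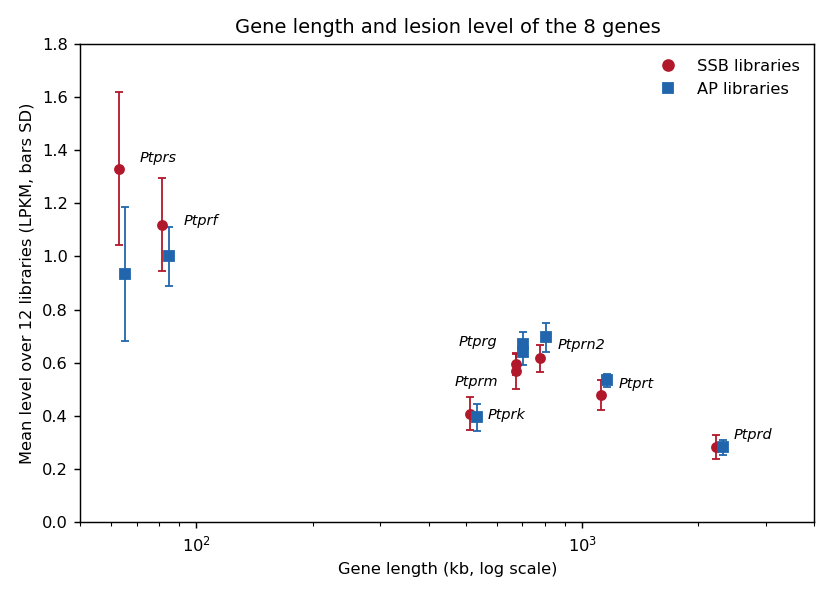
Mean LPKM over 12 libraries (vertical axis, bars SD) against gene length in kb (horizontal log axis), circles for SSBs and squares for AP sites, shifted slightly sideways from each other. Ptprs and Ptprf are short and highest, and Ptprd, the longest, is lowest in both assays.

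Among long genes the members were spread from low to high. Protein-coding genes over 500 kb, of which there are 227, had a median LPKM-SSB of 0.388, with quartiles of 0.283 and 0.494. Ptprd was above 25.6% of them, Ptprk above 53.3%, Ptprt above 71.4%, Ptprm above 85.9%, Ptprg above 89.4% and Ptprn2 above 91.6%. For AP sites the corresponding shares were 26.0%, 47.6%, 71.8%, 87.7%, 92.5% and 94.3%. Ptprs was above 99.9% of the 4945 protein-coding genes over 50 kb for SSBs and above 97.0% for AP sites, and Ptprf above 99.4% and 98.7%. The class over 50 kb also holds the genes over 500 kb, whose median was lower (0.388 against 0.493 for SSBs), so these ranks are not among genes of the same length.

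The regions around the genes of lowest and highest level differed in the same sense. Over the 500 kb on each side, LPKM-SSB was 0.184 ± 0.0270 around Ptprd and 0.215 ± 0.0254 around Ptprk (SD, n = 12), and 0.840 ± 0.122 around Ptprs and 0.671 ± 0.0735 around Ptprf. The flanks of the genes in between did not keep the order of the genes, with 0.540 around Ptprm, 0.490 around Ptprt, 0.482 around Ptprn2 and 0.421 around Ptprg. Ptprd, Ptprs, Ptprf, Ptprk, Ptprg and Ptprn2 were above their flanks in 12 of 12 libraries of each assay. The median ratio of gene to flank was largest for Ptprk, 1.86 for SSBs and 1.81 for AP sites, and was 1.54 and 1.52 for Ptprd and 1.61 and 1.23 for Ptprs. Ptprt and Ptprm were close to their flanks, with median ratios of 0.951 and 1.01 for SSBs and of 1.06 and 1.03 for AP sites. Ptprt exceeded its flanks in 5 of 12 SSB libraries and in 11 of 12 AP libraries.

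Ptprd, the gene with the most positions, had the lowest SSB levels in bone marrow, and sperm had the highest. LPKM-SSB was 0.190 and 0.220 in the 2 bone marrow libraries, 0.283 and 0.295 in brain, 0.284 and 0.287 in heart, 0.298 and 0.266 in liver, 0.294 and 0.297 in PBMCs, and 0.332 and 0.364 in sperm. Both bone marrow libraries lay below all others and both sperm libraries above all others, and the sperm mean was 1.70 times that of bone marrow. The bone marrow values rest on 198 and 118 positions and the sperm values on 283 and 230. Ptprk, a type IIb receptor of cell contacts, had the same order at the ends. Its LPKM-SSB was 0.321 and 0.316 in bone marrow and 0.50 and 0.488 in sperm, a ratio of means of 1.55, with 0.356 to 0.466 in the other libraries and no overlap with either tissue. Ptprt had 0.369 and 0.461 in bone marrow and 0.595 and 0.539 in sperm, a ratio of 1.36. Both sperm libraries of Ptprt were above all others, whereas its bone marrow libraries overlapped with those of brain and heart.

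Ptprs, which binds heparan and chondroitin sulphate proteoglycans on axons, went the other way. Its LPKM-SSB was 1.70 and 1.78 in bone marrow, 1.51 and 1.58 in brain, 0.978 and 1.30 in heart, 1.61 and 1.10 in liver, 1.04 and 1.22 in PBMCs, and 1.04 and 1.12 in sperm. Bone marrow was highest with no overlap, and the sperm mean was 0.620 times that of bone marrow. These values rest on 15 to 87 positions per library. In Ptprf the sperm to bone marrow ratio was 0.877, and its bone marrow libraries, 0.917 and 1.32, spanned most of the range of all 12. Ptprm was highest in heart, with 0.691 and 0.655 above all other libraries, and had 0.514 and 0.518 in bone marrow. Ptprg ranged from 0.526 to 0.664 and Ptprn2 from 0.546 to 0.712, and in neither gene did a tissue stand apart from all others. Bone marrow had the lowest mean in Ptprd, Ptprt, Ptprm, Ptprk and Ptprn2, sperm in Ptprs and Ptprf, and PBMCs in Ptprg. In Ptprn2 the means of bone marrow and heart were nearly equal, 0.572 and 0.573. In Ptprm bone marrow, at 0.516, was close to brain at 0.522 and PBMCs at 0.525. How often bone marrow is lowest over all genes was not counted, so this is not read as a trait of these genes.

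**Figure D2:**
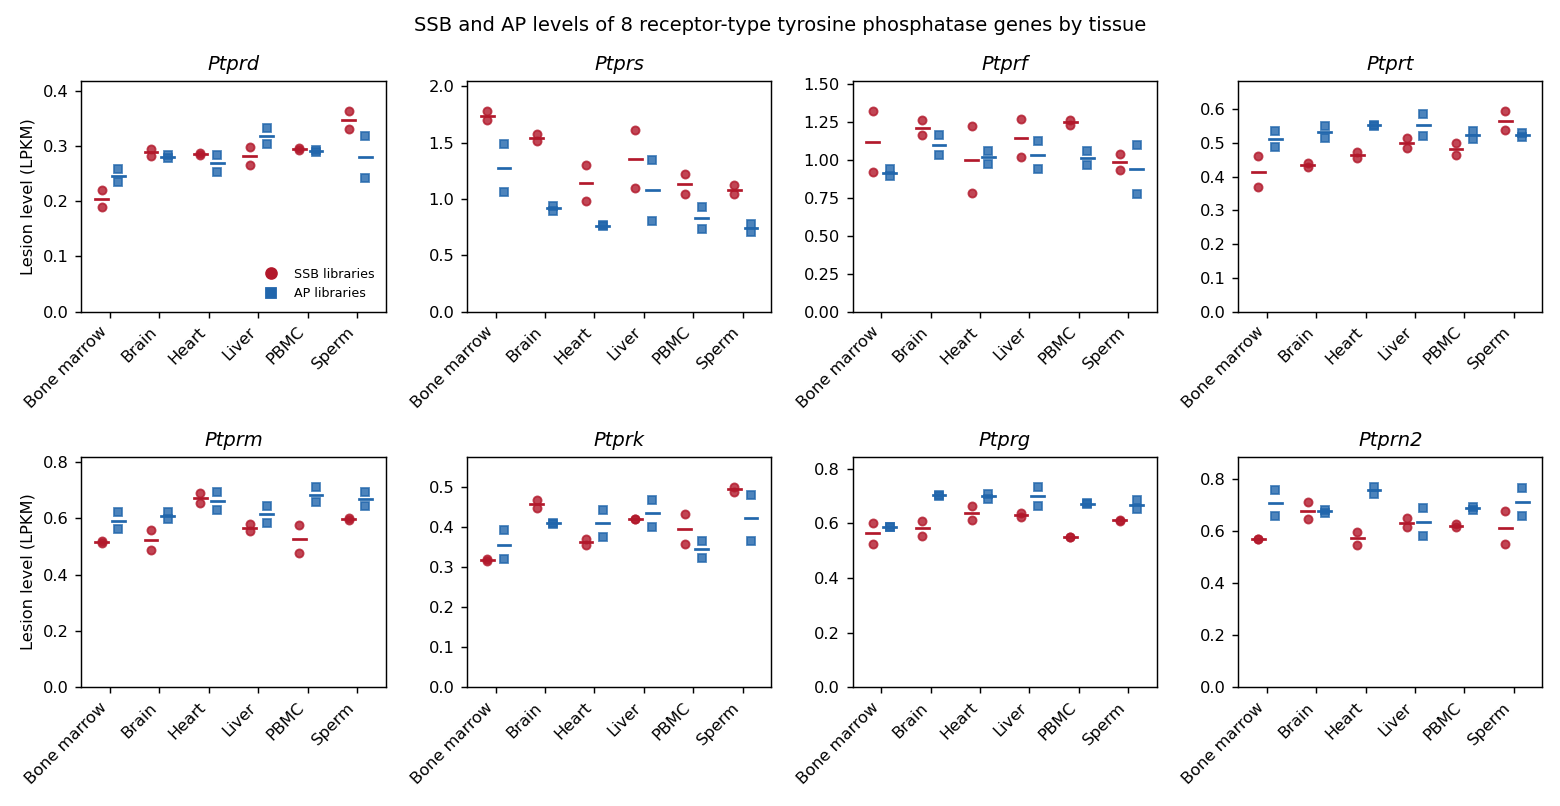
LPKM of each gene (vertical axes from 0) in the 2 replicates of 6 tissues (horizontal axes), circles for SSBs and squares for AP sites, with short lines at the means. SSB levels of Ptprd run from 0.190 in bone marrow to 0.364 in sperm, those of Ptprs from 1.78 in bone marrow down to 0.978 in heart, and AP levels of Ptprt stay between 0.488 and 0.586.

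The spread between libraries can be set against the counts behind it. For Ptprd the coefficient of variation of LPKM-SSB over the 12 libraries was 15.9%, where counting at the mean count of these libraries gives 5.82%. For Ptprk it was 15.4% against 10.1%, for Ptprt 11.9% against 6.35%, for Ptprm 11.3% against 7.39% and for Ptprs 21.7% against 15.9%. For Ptprf it was 15.7% against 15.2% and for Ptprg 6.99% against 7.24%, so that the spread of these 2 genes was close to what the depth alone gives. Counting error assumes that positions are independent molecules. It is taken here at the mean count, and because the libraries differed in depth these values are lower bounds, so the excess over counting is overstated. With edgeR's quasi-likelihood F test over the 6 tissues, 3 of the 8 genes (Ptprd, Ptprt and Ptprm) had an adjusted p under 0.05 for SSBs, where 0.125% of the 38486 genes tested did, and 15.7% of the 236 genes over 500 kb. Since the SSB pattern of Ptprd led to the choice of the genes, nothing is read from this count. It was 0 without the bone marrow libraries and 1 without the sperm libraries, and without replicate 1 of bone marrow the adjusted p of Ptprd was 0.149 by edgeR. Over all 22 settings tried, Ptprd passed in 19, Ptprt in 8 and Ptprm in 5.

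LPKM-AP of Ptprd was 0.235 and 0.259 in bone marrow, 0.285 and 0.278 in brain, 0.254 and 0.285 in heart, 0.333 and 0.304 in liver, 0.289 and 0.293 in PBMCs, and 0.242 and 0.319 in sperm. Liver had the highest mean and bone marrow the lowest, and the 2 sperm libraries lay near both ends of the range. Ptprt stayed between 0.488 and 0.586 in all 12 AP libraries, a coefficient of variation of 4.76% where counting at the mean count gives 4.73%. Ptprs was again highest in bone marrow, with 1.49 and 1.06, and lowest in sperm, with 0.777 and 0.703, although replicate 2 of liver, at 1.35, lay between the bone marrow libraries and both heart libraries, at 0.756 and 0.765, between those of sperm. Ptprg had 0.587 and 0.588 in bone marrow, below the other 10 AP libraries, which ranged from 0.652 to 0.734. Bone marrow had the lowest mean LPKM-AP in Ptprd, Ptprf, Ptprt, Ptprm and Ptprg, and its share over all genes was again not counted. None of the 8 genes passed the same test for AP sites, in which 0 of 41374 genes (0%) were called by edgeR with 1219 at an unadjusted p under 0.05, 0 by DESeq2 (18 at an unadjusted p under 0.05) and 53 by limma on log2(LPKM + 1), none of the 53 being among the 8. The lowest p-values before adjustment were 0.0270 for Ptprd, 0.0273 for Ptprs and 0.0483 for Ptprg, each with an adjusted p of 1.0 by edgeR. In simulated data with a change in sperm alone, this AP test recovered 1% of 1.5-fold and 70% of 2-fold changes. The genes changed had a mean of at least 20 positions and a spread set in advance, so these rates need not hold for the members. The tissue means of LPKM-AP spanned from 1.08-fold in Ptprt to 1.72-fold in Ptprs. That no member passed therefore does not show that their AP levels are equal across tissues.

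Whether the tissue pattern differs between SSBs and AP sites was tested as an interaction of assay and tissue over the 24 libraries. With edgeR none of the 8 genes passed and 0 of 41210 genes (0%) were called, with 1556 at an unadjusted p under 0.05; DESeq2 called 0 as well, with 174. This test contains the SSB levels by tissue on which the genes were selected, so it is not independent of their choice and no p of a single member is given. That no gene passed does not show that the lesions have the same tissue pattern.

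In several genes the flanks followed the gene. The SSB level of the flanks was 1.42 times higher in sperm than in bone marrow for Ptprd, against 1.70 in the gene, and 1.23 times for Ptprk, against 1.55. For Ptprs both were lower in sperm, 0.695 in the flanks and 0.620 in the gene, and for AP sites 0.770 and 0.581. Around Ptprt the flanks went the other way, with 0.909 against 1.36 in the gene, and around Ptprg they had 1.37 against 1.08. The difference between gene and flank was not tested.

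**Figure D3:**
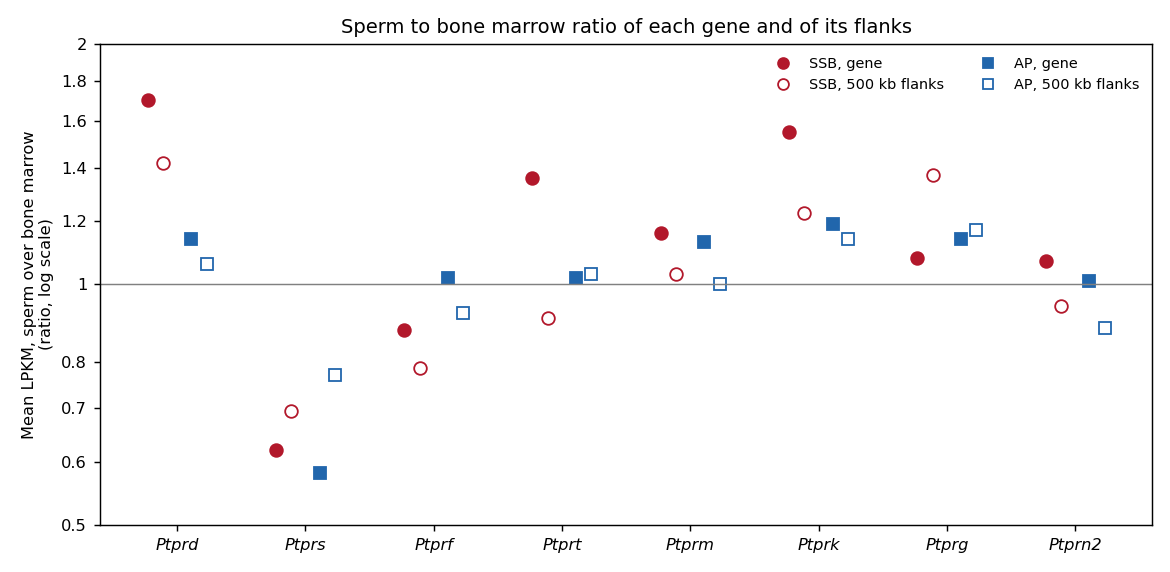
Ratio of the mean LPKM in sperm to that in bone marrow (vertical log axis) for each gene (filled) and for the 500 kb on both sides of it (open), circles for SSBs and squares for AP sites, 2 libraries per tissue. Ptprd and Ptprk lie above 1 together with their flanks, Ptprs lies below 1 with its flanks, and Ptprt lies above 1 for SSBs at 1.36 with its flanks at 0.909.

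Of the 283 genes with a mean of at least 100 SSB positions per library, those whose LPKM-SSB followed Ptprd most closely over the 12 SSB libraries were Tenm2 (Pearson's r of 0.930), Dpp10 (0.927), Mecom (0.913), Ctnna2 (0.910) and Robo2 (0.902). The median r over all 283 was 0.368. The libraries share depth and tissue, so r is a description. Tenm2, Dpp10, Ctnna2 and Robo2 are over 1 Mb long, with 1230398, 1513678, 1098179 and 1555468 bp, and Mecom has 558464 bp. Of the other members with enough positions, Ptprt had 0.741, Ptprm 0.366, Ptprg 0.356 and Ptprn2 0.216.

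As a next step the share of SSB positions was compared with that of AP positions in the same DNA samples, with the sample as a block. The contrast contains the SSB counts of genes selected on SSB levels, so nothing is read from the number of members called. In edgeR's test 4 of the 8 genes held a smaller share of SSB than of AP positions, where 0.590% of the 41210 genes did, and 1 held a larger share, where 0.155% did. The log2 ratio of SSB to AP was -0.27 ± 0.06 (SE) in Ptprn2 (adjusted p = 0.00196), -0.26 ± 0.06 in Ptprt (0.00285), -0.26 ± 0.06 in Ptprg (0.00474) and -0.26 ± 0.06 in Ptprm (0.00820). It was 0.43 ± 0.105 in Ptprs (0.0115). These values stand beside a median of -0.0781 over all genes tested. Ptprd at -0.08, Ptprk at -0.04 and Ptprf at 0.05 did not pass, with adjusted p of 0.705, 0.918 and 0.930. The 4 decreases depend on the scaling. With library totals in place of TMM the ratios were -0.18, -0.17, -0.17 and -0.16 with adjusted p of 0.0512, 0.0717, 0.102 and 0.165, only Ptprs passed, Ptprd and Ptprk changed sign, and the calls over all genes went from 64 higher and 243 lower to 108 higher and 65 lower. With every library thinned to equal depth no member passed, Ptprs keeping a log2 ratio of 0.55 (adjusted p = 0.165).

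Such calls were more frequent among long genes, with 24.2% of the 236 genes over 500 kb called in either direction, against 0.745% of all genes tested. Long genes hold more positions, and this share was not compared at equal counts. In Ptprs LPKM-SSB ranged from 0.978 to 1.78 with a median of 1.26, and LPKM-AP from 0.703 to 1.49 with a median of 0.848. The ranges overlap, and without replicate 2 of brain, replicate 2 of heart or replicate 1 of liver the adjusted p of Ptprs was 0.0622, 0.0673 and 0.0520.

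The strand of the lesions was not used to choose the genes. The deposited strand is taken as given, and coding means that it equals the strand of the gene; the sources used here do not state whether it is the broken strand or its complement, in which case coding and template change places. For SSBs, Ptprk had 689 positions on the coding and 482 on the template strand, a coding share of 58.8%. The share exceeded 50% in 12 of 12 libraries, with a lowest value of 55.1%, a median of 58.7% and a highest of 66.7%. Ptprg had 1316 and 973 positions, a share of 57.5%, again above 50% in 12 of 12 libraries, from 51.4% to 64.3% with a median of 57.0%. Ptprn2 had a share of 53.5% and exceeded 50% in 11 of 12 libraries, Ptprt had 53.3% and exceeded it in 10, and Ptprm had 53.0% and exceeded it in 11. In Ptprf the share was 56.2% and exceeded 50% in 11 of 12 libraries, the exception being replicate 1 of bone marrow at 34.3%. Ptprs was even, with 49.3%. Ptprd had 48.2% of its SSB positions on the plus strand, between 43.7% and 51.7%, where 50.2% to 50.6% of all SSB positions of a library were.

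In edgeR's test of the strands within libraries, which called 9.92% of 13290 genes in either direction, 4 of the 7 genes of known strand had more SSB positions on the coding strand, where 9.56% of the 10366 genes of known strand did and 0.347% had more on the template strand. The log2 ratio of coding to template was 0.515 ± 0.09 (SE) in Ptprk (adjusted p = 1.27e-06), 0.44 ± 0.06 in Ptprg (5.38e-09), 0.21 ± 0.06 in Ptprn2 (0.00937) and 0.19 ± 0.06 in Ptprt (0.0133). Ptprf had 0.36 ± 0.13 (0.0555), Ptprm 0.17 ± 0.06 (0.0638) and Ptprs -0.04 ± 0.13 (0.883). For Ptprd the ratio of plus to minus was -0.10 ± 0.05 (0.196). A coding excess was common: the median ratio over the 10366 genes was 0.214 and 74.4% were above 0, so the median of 0.206 over the 7 members was close to that of all genes. Of the 236 genes over 500 kb, which hold more positions, 35.6% were called in either direction. The 183 of them of known strand had a median coding share of 52.9%, against 53.8% over all genes of known strand. Ptprf and Ptprm passed when the strands were scaled to their own totals (adjusted p of 0.0384 and 0.0289), and in that scaling the calls over all genes by plus and minus strand were 637 and 632 in place of 765 and 554. Ptprt lost its call without replicate 2 of heart (0.0844), and Ptprf passed without replicate 1 of bone marrow (0.0154). With DESeq2 Ptprt and Ptprn2 had adjusted p of 0.0937 and 0.0539.

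AP sites were more even. The coding share was 52.8% in Ptprk, 51.5% in Ptprn2, 50.9% in both Ptprg and Ptprm, 49.9% in Ptprt, 48.7% in Ptprs and 45.7% in Ptprf. Of the AP positions of Ptprd 51.7% were on the plus strand, where 50.8% to 51.1% of all AP positions of a library were. No member passed edgeR's strand test for AP sites, in which 0.163% of 17834 genes were called, with 2.97% of those over 500 kb and, of the genes of known strand, 0.145% towards the coding and 0.0217% towards the template strand. These were 26 calls towards the plus and 3 towards the minus strand, and with strand totals as scaling 5 and 2. DESeq2 called 0 genes, with 614 at an unadjusted p under 0.05. The lowest unadjusted p-values of the members were 0.0195 for Ptprd, 0.0204 for Ptprk and 0.0222 for Ptprf, with adjusted p of 0.393, 0.403 and 0.418 by edgeR.

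Whether the strand ratio differs between the lesions was then tested directly, a comparison added after the strand shares were seen. It passed in 2 of the 8 genes, Ptprg with a difference of log2 ratios (SSB minus AP) of 0.39 ± 0.08 (SE, adjusted p = 0.000456) and Ptprf with 0.60 ± 0.17 (0.0236), where 2.47% of 15776 genes and 9.75% of those over 500 kb passed, and 2.38% of those of known strand with a larger coding share for SSBs. Ptprk had 0.35 ± 0.11 (0.0552) and passed with strand totals as scaling (0.0336). For Ptprd the difference, of plus to minus, was -0.20 ± 0.07 (edgeR, adjusted p = 0.0716). The difference was above 0 in 7 of 7 members of known strand, although that of Ptprs, 0.03, was -0.00115 with strand totals, and it was above 0 in 67.9% of 12277 genes. In that scaling the calls over all genes towards the plus and the minus strand were 189 and 195 in place of 140 and 250. For Ptprf, 4 of the 12 omissions of a DNA sample left the adjusted p above 0.05 (replicate 2 of bone marrow, brain, heart or PBMCs, up to 0.0698), as did the omission of the filter on low counts (0.0731), and for Ptprg it was at most 0.0102 in all 18 settings.

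**Figure D4:**
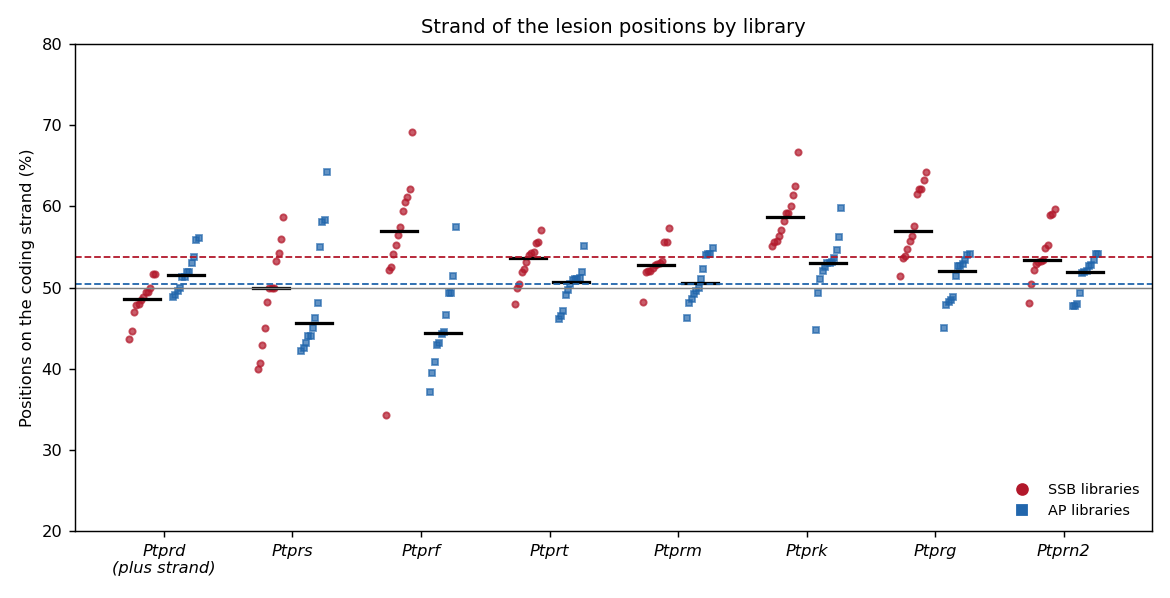
Percentage of positions on the coding strand (vertical axis, shown from 20 to 80%) in each of 12 SSB libraries (circles) and 12 AP libraries (squares) per gene, with black lines at the medians and dashed lines at the medians of all genes, 53.8% for SSBs and 50.5% for AP sites. Ptprk and Ptprg lie above 50% in 12 of 12 SSB libraries, and for Ptprd the plus strand is shown in place of the coding strand.

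The coding share of SSBs varied between tissues in some members, without a test. In Ptprg it was 63.9% in liver, 60.2% in PBMCs and 52.9% in brain, with 63.3% and 64.3% in the liver libraries against 51.4% and 53.6% in those of brain. In Ptprk it ranged from 56.0% in bone marrow to 63.1% in PBMCs. The PBMC libraries had 57.1% and 66.7% and those of bone marrow 55.8% and 56.4%, so this range lies within the spread of replicates.

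In Ptprd and Ptprn2 positions were unevenly spread along the gene, with the same direction for both lesions. Of 10 equal segments, the 3 of lowest coordinate held 43.5% of the SSB and 45.1% of the AP positions of Ptprd, and the other 7 held 6.38% to 9.88% of the SSB positions each. The share on the lower side of the midpoint of Ptprd was 60.9% for SSBs, between 55.3% and 64.0% in the 12 libraries, and 63.3% for AP sites, between 57.5% and 69.0%. In Ptprn2 positions accumulated towards the 3′ end, where the last 2 segments held 26.3% of SSBs and 26.6% of AP sites. Its 5′ side held 41.0% of SSBs and 41.2% of AP sites, below 50% in 12 of 12 libraries of each assay. In windows of 100 kb, Ptprd had 89 to 277 SSB positions and 140 to 458 AP positions over 22 windows. The window of most SSBs was chr4:76441237-76541236 and that of most AP sites chr4:76241237-76341236. Across the windows Pearson's r between SSB and AP positions was 0.952 in Ptprd, 0.978 in Ptprn2 (7 windows), 0.904 in Ptprt (11 windows), 0.954 in Ptprg (6 windows), 0.804 in Ptprm (6 windows) and 0.796 in Ptprk (5 windows). Windows share their base composition and mappability between the assays, so r is a description.

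**Figure D5:**
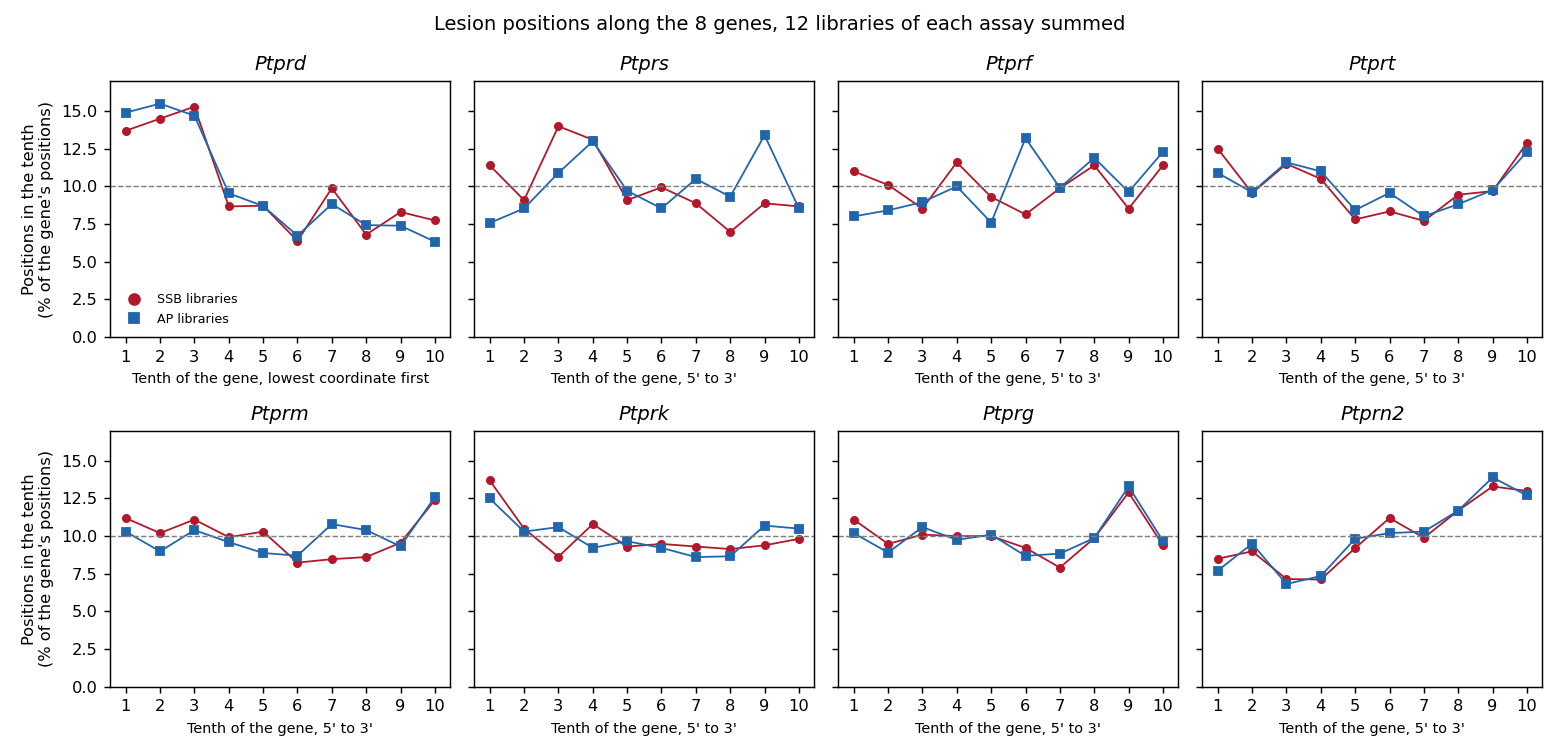
Percentage of the positions of each gene (vertical axes from 0) in 10 equal segments (horizontal axes, 5′ to 3′, or by coordinate for Ptprd), circles for SSBs and squares for AP sites, with 12 libraries summed and a dashed line at an even spread. The first 3 segments of Ptprd are highest in both assays, at 13.7% to 15.5%, and the profile of Ptprn2 rises towards the 3′ end.

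Both sides of the midpoint were compared within libraries. For SSBs 3 of the 8 genes passed edgeR's test, where 15.9% of 13290 genes did and 49.2% of the 236 genes over 500 kb. Of the genes of known strand, 5.78% had more on the 5′ side and 9.68% more on the 3′ side. The log2 ratio of the lower to the upper side was 0.63 ± 0.05 (SE) in Ptprd (adjusted p = 5.11e-32), and the ratio of the 5′ to the 3′ side was -0.53 ± 0.06 in Ptprn2 (3.86e-17) and 0.38 ± 0.14 in Ptprs (0.0354). For AP sites 3 genes passed, where 29.6% of 17834 genes did and 65.3% of those over 500 kb, and of the genes of known strand 8.1% had more on the 5′ side and 21.3% more on the 3′ side. The ratios were 0.785 ± 0.04 in Ptprd (7.37e-79), -0.51 ± 0.04 in Ptprn2 (2.68e-30) and -0.40 ± 0.11 in Ptprf (0.00137). Calls of an uneven spread along the gene were therefore frequent among long genes. Long genes hold more positions, and calls were not compared at equal counts. In Ptprd and Ptprn2 the uneven spread had the same direction for both lesions. In Ptprs the SSB result was lost with DESeq2 (adjusted p = 0.161), without the filter on low counts (edgeR, 0.0885), and (up to 0.142) when any of 7 libraries was left out, namely both of bone marrow, replicate 2 of brain, heart or liver, replicate 1 of PBMCs or replicate 1 of sperm.

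Lesions rarely recurred at a nucleotide. Of 15755 distinct SSB nucleotides in the 8 genes, 73 (0.463%) were found in 2 or more of the 12 libraries, against 0.519% over the genome, and of 26507 AP nucleotides 362 (1.37%), against 1.45%. The most frequent was an AP site of Ptprd at chr4:76685914 on the minus strand, found in 4 libraries (replicate 1 of brain, PBMCs and sperm and replicate 2 of liver). For SSBs it was chr14:11578912 of Ptprg on the plus strand, found in replicate 1 of heart and both sperm libraries. Between 5 (Ptprs) and 35 (Ptprn2) nucleotides of a gene were hit in both assays.

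Other phosphatases and partners of the type IIa receptors were examined with the same tests. Of the other 13 receptor-type phosphatase genes, which have a median length of 114 kb against 688 kb in the 8, none passed the tissue test for SSBs or AP sites, the contrast of SSBs with AP sites or the interaction by edgeR, with 1, 1, 3 and 0 of them at an unadjusted p under 0.05. Their median LPKM-SSB was 0.568 against 0.581 in the 8, and the 3 with most SSB positions, Ptpro, Ptpre and Ptprr, had LPKM-SSB of 0.568 ± 0.0704, 0.794 ± 0.0807 and 0.441 ± 0.0483 (SD, n = 12). Of these 13 genes, 2 passed the strand test for SSBs, where 9.92% of all genes tested did, Ptprj with a log2 ratio of coding to template of 0.57 ± 0.12 (SE, adjusted p = 0.000367) and Ptpru, a type IIb gene, with 0.59 ± 0.16 (0.00801). Ptpru also had a larger coding excess of SSBs than of AP sites (0.74 ± 0.21, edgeR adjusted p = 0.0242), in a comparison that 2.47% of 15776 genes passed. On the 3′ side, 4 genes (Ptpra, Ptpro, Ptprh and Ptprr) had more SSB positions, where 9.68% of genes of known strand did, and 1 (Ptprc, the leukocyte antigen CD45) had fewer, with log2 ratios of 5′ to 3′ between -1.01 and 0.625. For AP sites 3 of the 10 genes of known strand (Ptpra, Ptpru and Ptpro) had more on the 3′ side, where 21.3% of all genes of known strand did. Ptprq, of unknown strand in the table, differed between the sides, where 29.6% of all genes tested did.

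Of 27 genes for partners of the type IIa receptors, 2 held a smaller share of SSB than of AP positions, where 0.590% of 41210 genes did. These were Ntrk3, the neurotrophin-3 receptor, with a log2 ratio of -0.39 ± 0.07 (SE, adjusted p = 5.66e-05), and Gpc6, a heparan sulphate proteoglycan, with -0.28 ± 0.06 (0.00176). Both are long, with 401049 and 1054610 bp, and with Trio, a guanine nucleotide exchange factor bound by the intracellular part, they held the most SSB positions of the list. The coding excess of SSBs passed in Ppfibp1, Ppfibp2, Trio and Il1rap, with log2 ratios of 0.504, 0.589, 0.235 and 0.536, in 4 of 19 genes tested, where 9.92% of all genes passed in either direction and 9.56% of those of known strand towards the coding strand. That of Ppfibp2 was larger than for AP sites (0.66 ± 0.16, adjusted p = 0.00462), in a comparison that 2.47% of 15776 genes passed. No partner gene passed edgeR's tissue tests, with 5 of 27 at an unadjusted p under 0.05 for SSBs and 1 for AP sites. The sides of the midpoint differed in 6 of 19 genes for SSBs, where 15.9% of all genes did (Ntrk3, Ppfia1, Lrfn5, Gpc6, Il1rap and Caskin1) and in 7 of 21 for AP sites, where 29.6% did (Slitrk3, Ppfibp2, Ppfia1, Slitrk5, Gpc6, Il1rap and Lrfn2).

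Of 17 non-receptor phosphatase genes, Ptpn13 held a smaller share of SSB than of AP positions (log2 ratio -0.36 ± 0.09, SE, edgeR adjusted p = 0.0295), where 0.590% of 41210 genes did. None of the 17 passed edgeR's tissue tests, with 2 for SSBs and 1 for AP sites at an unadjusted p under 0.05. Ptpn14 had a coding excess of SSBs (0.47 ± 0.11, 0.00166), and Ptpn2, of unknown strand in the table, had more SSB positions on the minus strand (log2 ratio of plus to minus -0.763, adjusted p = 0.0323). They were 2 of 17 genes in this strand test, where 9.92% of 13290 genes were called in either direction. The difference of the strand ratio between the lesions passed in Ptpn14 and Ptpn11, with 0.512 ± 0.145 and 0.841 ± 0.243, where 2.47% of 15776 genes passed. Of this list Ptpn14, Ptpn3 and Ptpn13 held most SSB positions, with LPKM-SSB of 0.793 ± 0.140, 0.711 ± 0.0660 and 0.488 ± 0.0834 (SD, n = 12). The sides of the midpoint differed in 2 of 17 genes for SSBs (Ptpn11 and Ptpn23), where 15.9% of all genes did, and in 8 of 16 for AP sites, where 29.6% did (Ptpn14, Ptpn22, Ptpn3, Ptpn12, Ptpn13, Ptpn11, Ptpn23 and Ptpn21), of which Ptpn22 alone had more on its 5′ side among the 7 of known strand.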

How the data were processed

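The authors deposited, for each of the 24 SSB and AP libraries, a list of lesion positions with strand and a read count per position, on mm10 (GRCm38) per the submitters' processing notes, which also name RSEM 1.2.28 for RNA; the aligner settings are not given in the sources used here. The 12 RNA samples were not analysed here. Each position was counted once, whatever its deposited count, since few positions had a count above 1 (0.566% of SSB and 0.440% of AP positions). A gene received all positions between its start and end, for 49943 RefSeq genes. Gene length and library positions give LPKM.

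Tests used edgeR 4.0.16 (quasi-likelihood F test, TMM for whole genes) with Benjamini-Hochberg adjustment over all genes tested and a threshold of 0.05. Genes needed a position in 20% of libraries, and strands and sides of the midpoint needed a mean of 5 positions per library. The contrast of assays had the DNA sample as a block, and strand and side tests the library. DESeq2 1.42.0 and limma 3.58.1 (log2 of LPKM + 1) were alternatives, with R 4.3.3 and Python 3.11.15. Strand totals as scaling and the test of strand ratios between the lesions were chosen after seeing the data. The tests were tried on simulated data, with changes put into 200 genes with a mean of at least 20 positions. The spread between libraries was set in advance and was the same for all genes. In the tissue tests the change was in sperm alone, and in the interaction test in the SSB libraries of sperm alone. The tissue tests recovered 0% (SSBs) and 1% (AP sites) of 1.5-fold changes, and 35.5% and 70% of 2-fold changes. The interaction test recovered 0% of 2-fold changes. The members and lists were chosen with earlier results of these data known. The text names the 8 members, the 5 genes most like Ptprd, and of each list the genes called and the 3 with the most SSB positions. Promoter sequences are from RefSeq (GRCm38.p6). The totals (225011 to 1041983 in SSB libraries, 460719 to 963258 in AP libraries) limit the counts in short genes.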

Additional observations from a re-analysis of the deposited data

Results flagged for a closer look

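The strand ratio differed between the lesions in 2 of the 8 genes by the direct test, where 2.47% of 15776 genes and 9.75% of those over 500 kb passed. The coding to template log2 ratio of Ptprg was higher for SSBs than for AP sites by 0.389 (edgeR, adjusted p = 0.000456), with a coding share above 50% in 12 of 12 SSB libraries and 7 of 12 AP libraries. That of Ptprf was higher by 0.604 (adjusted p = 0.0236), with 11 of 12 SSB and 2 of 12 AP libraries above 50%, and was lost without the filter on low counts (0.0731) and in 4 of 12 omissions of a DNA sample (replicate 2 of bone marrow, brain, heart or PBMCs, up to 0.0698). The comparison was added after the strand shares were seen.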

How the results depend on the processing

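For SSBs by tissue, 48 genes and 3 members were called. The counts were 4 and 1 with DESeq2's likelihood ratio test, 16 and 1 with summed counts, 5 and 1 at equal depth, 0 and 0 without bone marrow, 7 and 1 without sperm, and 4 to 65 and 0 to 3 when 1 library was left out; limma called 0 members. For AP sites by tissue limma called 53 genes, and leaving out 1 library gave 0 to 0. For SSBs against AP sites, 307 genes and 5 members became 179 and 1 with DESeq2's size factors, 173 and 1 with library totals, 43 and 1 with DESeq2's Wald test and 10 and 0 at equal depth, and 193 to 344 and 4 to 5 with 1 DNA sample left out. The sign turned for Ptprd (0.00108, 0.0135 and 0.0255 with size factors, totals and equal depth) and Ptprk (0.0314, 0.0424 and 0.00569, and 0.0321 with the Wald test). The interaction gave 2 genes with summed counts and 0 to 1 with 1 DNA sample left out.

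For the strand of SSBs, 1319 genes and 4 members became 437 and 2 with DESeq2 and 704 genes without a filter, and 948 to 1270 and 3 to 5 with 1 library left out. For AP sites 29 became 9 with TMM, 0 with DESeq2, 14 without a filter, 98 with a mean of at least 20 positions and 7 with strand totals, and 12 to 37 with 1 library left out; Ptprt turned to 0.0401 and 0.0528 with TMM and strand totals and Ptprg to -0.00603 with strand totals. For the sides of the midpoint, 2119 SSB calls became 992 with DESeq2 and 1010 with a mean of at least 20 positions (1652 to 2048 and 2 to 4 members with 1 library left out), and 5287 AP calls became 3247 and 2575 (4755 to 5128 and 3 to 4 members). For the difference of strand ratios, 390 became 173 (1 member) without a filter and 199 with DESeq2, and 254 to 388 genes and 1 to 3 members with 1 DNA sample left out. With a mean of at least 20 positions, 561 of 4333 genes and 5 members passed. Ptprd was among these 5, with -0.201 for plus to minus (edgeR, adjusted p = 0.0235). Ptprs turned to -0.00115 with strand totals. With 1 library or DNA sample left out, log2 ratios changed sign within these ranges: strand of SSBs, Ptprs -0.101 to 0.0199; strand of AP sites, Ptprt -0.0194 to 0.0211; sides for SSBs, Ptprf -0.0528 to 0.107 and Ptprg -0.0176 to 0.0799; sides for AP sites, Ptprs -0.0836 to 0.0462 and Ptprg -0.0464 to 0.00671; difference of strand ratios, Ptprs -0.0437 to 0.0916. The cause of these changes was not tested, except that fewer samples or positions enter the fits with omissions, filters or equal depth.

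The labels tie the SSB and AP libraries of a tissue and number to 1 DNA sample, but do not say that a number marks an animal across tissues. Residuals of same-numbered libraries of different tissues correlated at -0.0336 to 0.0233 for SSBs and -0.188 to 0.131 for AP sites. Those of the same DNA sample in both assays correlated at -0.0354 to 0.0308, so that this measure cannot show whether numbers pair the tissues. With a replicate block 59 genes and 3 members were called for SSBs by tissue, 0 for AP sites and 0 for the interaction; without the DNA block the contrast of assays called 419 genes and 5 members.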
